A study of Mus musculus with 6 samples.

Results

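The miR-15/16 family of microRNAs (miRNAs) was described in 1 small RNA library of mouse liver. Its members were the mouse entries named miR-15a, miR-15b, miR-16, miR-195a, miR-497a, miR-322 or miR-503, with any arm or copy suffix. This rule gave 15 distinct sequences of the 1963 distinct mouse sequences in the table, and the rule uses names alone, not counts. Of the members, 7 come from the 5p arm and 8 from the 3p arm of 8 hairpins, which lie in 4 genomic clusters.

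The study sequenced livers of mice injected with AAV9, an adeno-associated virus that carries genes into tissues. In 3 Cre-miR122 mice (replicates 1, 2 and 4) the vector carried Cre recombinase behind the promoter of Tnnt2, the cardiac troponin T gene, together with an element named after miR-122. In 3 Cre mice (replicates 10, 11 and 12) it carried Cre behind the same promoter without that element, so every mouse of the study received Cre. The Tnnt2 promoter is used to drive genes in heart muscle cells, whereas the RNA came from liver. Whether the miR-122 element encodes that miRNA or holds sites for it is not given in the sources used here, nor are strain, sex, age and the time after injection. Counts of Cre-miR122 replicate 2 were analysed, while 5 libraries were not analysed here. All values below therefore describe a single library without a replicate or a control, and no difference between Cre-miR122 and Cre livers was tested.

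A miRNA hairpin is cut into a duplex whose strands are named 5p and 3p, and the strand kept by an Argonaute protein guides it to mRNAs that pair with the seed, bases 2 to 8 of the miRNA. The 5p strands of this family have the same or nearly the same seed and are known for lowering the mRNAs of cell cycle and survival genes, such as cyclin D1, cyclin E1 and Bcl2. In human chronic lymphocytic leukaemia the genomic region of miR-15a and miR-16-1 is often deleted. In mice, miR-195 is known for its rise in the heart after birth, when heart muscle cells leave the cell cycle, and miR-322 and miR-503 are known for their induction during muscle differentiation. miR-424 is the name of miR-322 in humans and many other species.

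The 5p members are printed first, because the seed that makes them a family is visible in them. All sequences run 5′ to 3′ and come from RefSeq on GRCm38.p6, where all 15 members matched the deposited sequence. Capitals mark the seed.
miR-15a-5p: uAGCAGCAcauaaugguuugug
miR-15b-5p: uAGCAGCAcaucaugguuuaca
miR-16-5p: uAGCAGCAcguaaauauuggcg
miR-195a-5p: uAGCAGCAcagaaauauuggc
miR-497a-5p: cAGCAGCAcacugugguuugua
miR-322-5p: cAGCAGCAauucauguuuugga
miR-503-5p: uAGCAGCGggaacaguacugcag
The seed AGCAGCA is shared by 6 of them. miR-503-5p has AGCAGCG, which differs in its last base. Compared from the first base on, seed included, miR-16-5p and miR-195a-5p were the closest pair, with 19 of 21 compared bases identical, and miR-15a-5p and miR-15b-5p had 18 of 22. The first base is C in miR-322-5p and miR-497a-5p and U in the other 5p members.

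The 3p members have no seed in common, and each of their seeds is found in no other mouse sequence of the table. The 4 with the most reads are shown in the order of their reads, again with the seed in capitals.
miR-322-3p: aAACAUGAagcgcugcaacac
miR-503-3p: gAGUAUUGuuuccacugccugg
miR-195a-3p: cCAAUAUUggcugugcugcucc
miR-15b-3p: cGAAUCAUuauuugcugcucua

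The library held 8163802 reads over 30721 distinct mature sequences of many species, of which 6661069 were counted for mouse sequences. Percentages of mouse reads are of this sum of 6661069. The floor was set at 3 reads, which is 4.5e-05% of mouse reads. The exact 95% interval of a count of 0 reaches 5.54e-05%. Intervals in parentheses are exact 95% intervals, and like the floor they cover counting error only, since PCR copies of a molecule are not independent reads. Of 4 miRNAs known from hepatocytes, miR-148a-3p had 3856275 reads, miR-122-5p 236027, miR-192-5p 72085 and miR-194-5p 4017. The library also held 1050297 reads, 15.8% of mouse reads, of striated muscle and heart miRNAs. Of that list of 6, miR-1a-3p had 980271 reads, miR-206-3p 68854, miR-133a-3p 915, miR-499-5p 251 and miR-208b-3p 6, while miR-208a-3p was at 0. miR-1a-3p thus had more reads than miR-122-5p, also when reads with other ends were added, at 1065891 against 685102. miR-133a-3p then had 11609. Of endothelial miRNAs, miR-126a-3p had 59356 reads and miR-126a-5p 1152. Of blood miRNAs, miR-451a had 305 reads, miR-223-3p 42, miR-142a-3p 25 and miR-144-3p 3. When reads with other ends were added, these had 2635, 63, 146 and 7. The part of muscle, endothelial and blood RNA in the values of the family was not tested. Fewer cells that hold a miRNA and less of it per cell cannot be told apart in bulk tissue.

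The family was a small part of the liver library. Its 15 members held 2043 reads, which is 0.0307% of mouse reads (0.0294 to 0.0320). Reads were found for 13 members and at least 10 reads for 10, against 546 and 303 of all 1963 mouse sequences. mmu-miR-322-3p was the highest member with 814 reads, at rank 77 among mouse sequences, between miR-125b-5p with 854 and miR-106b-3p with 771. mmu-miR-16-5p followed with 408 reads at rank 98, between miR-328-3p with 410 and miR-410-3p with 406. miR-503-3p had 205 reads at rank 128. These 3 sequences stood above all other members, whose counts ran from 0 to 151.

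**Figure D1:**
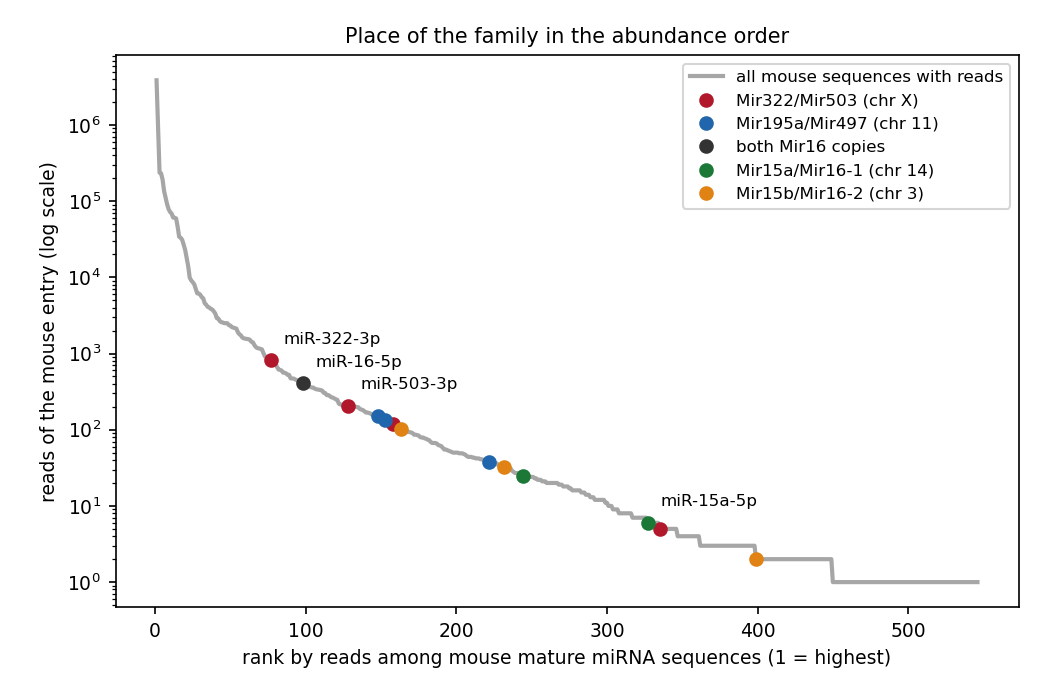
Reads of the mouse entry (log scale) against rank for all mouse sequences with reads (grey line), with the 13 family members that had reads as coloured points by cluster. The highest member, miR-322-3p, sits at rank 77 with 814 reads, and miR-15a-5p at rank 327 with 6.

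Many reads of a miRNA end a base or more before or after the mouse entry, and in this table such reads were counted for entries of other species. An end form is here an entry of the same miRNA number from another species that is identical to a stretch of the mouse hairpin but starts or ends elsewhere. The table held 171 other-species sequences of these miRNA numbers. Reads were found for 21 of them, and 19 of these matched a family hairpin as end forms. With end forms the family had 3550 reads, 0.0442% (0.0428 to 0.0457) of the 8032202 reads counted in the same way for all mouse sequences. miR-322-3p and miR-16-5p still led, with 1416 and 958 reads at ranks 91 and 98. miR-195a-5p with 277 reads and miR-195a-3p with 247 then came before miR-503-3p with 205. miR-503-3p could not gain reads, since 0 end forms of it are recorded.

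**Figure D2:**
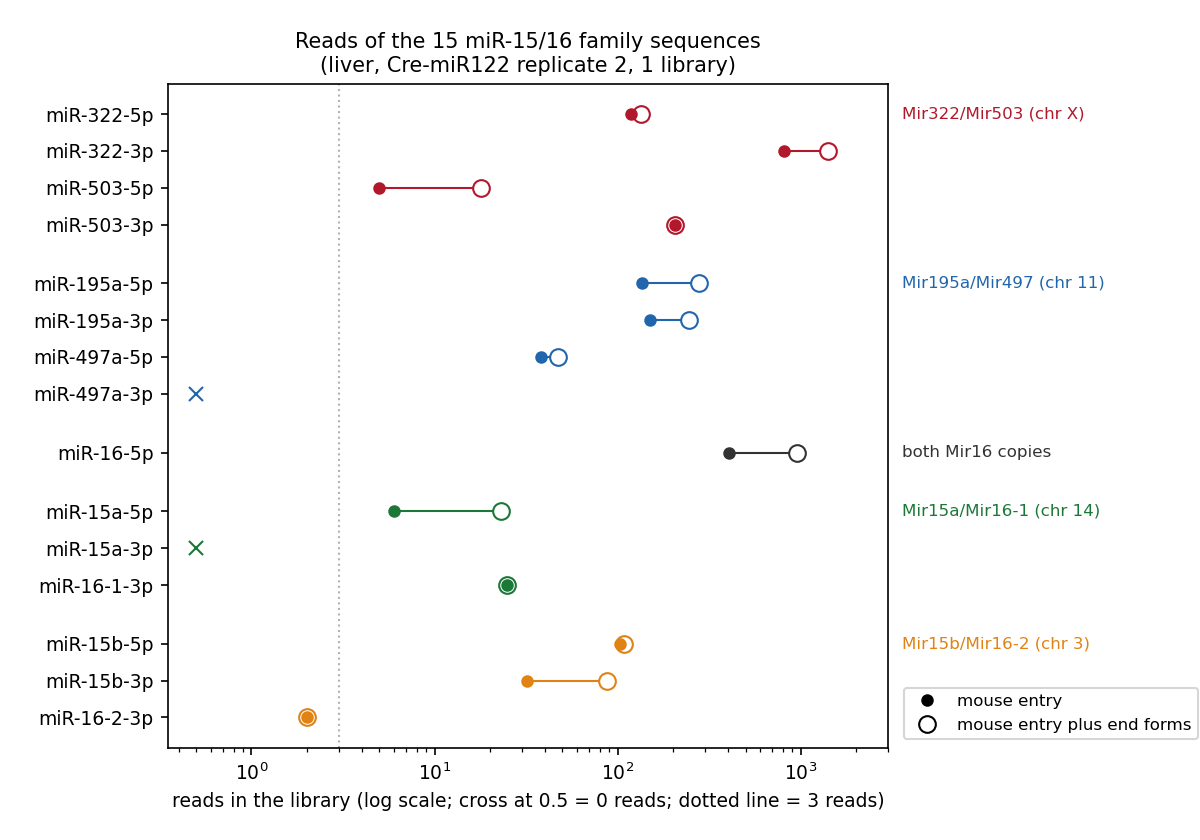
Reads (log scale) of each of the 15 members by cluster, as the mouse entry (filled) and with end forms added (open). miR-322-3p moves between 814 and 1416 reads and miR-16-5p between 408 and 958, while miR-15a-3p and miR-497a-3p have 0 reads.

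Among the 7 5p members miR-16-5p was the main form. It held 408 of their 814 reads, 50.1% (46.6 to 53.6), and 61.1% (58.7 to 63.6) with end forms. mmu-miR-195a-5p came next with 136 reads, then mmu-miR-322-5p with 118 and mmu-miR-15b-5p with 103. These neighbours lay close together: the ratio of miR-195a-5p to miR-322-5p was 1.15 (0.894 to 1.49) and that of miR-322-5p to miR-15b-5p was 1.15 (0.872 to 1.51), so neither pair was separated beyond counting error. With end forms miR-195a-5p had 277 reads against 135 of miR-322-5p, a ratio of 2.05 (1.66 to 2.54), while miR-322-5p and miR-15b-5p with 109 were still not separated. mmu-miR-497a-5p had 38 reads, or 47 with end forms. The lowest 5p members were mmu-miR-15a-5p with 6 reads and mmu-miR-503-5p with 5, or 23 and 18 with end forms.

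The 6 members with the seed AGCAGCA together had 809 reads, or 1549 with end forms. No other mouse sequence with this seed added to them. These are miR-195b, miR-1907, miR-6342, miR-6353 and miR-6419, and each had 0 reads. The AGCAGCG form of the seed was carried by miR-503-5p alone.

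By cluster, the largest part of the reads came from chromosome X, though with end forms it was no majority. On mm10 (GRCm38), Mir322 (ENSMUSG00000065418.1, minus strand, 53054255 to 53054349) and Mir503 (ENSMUSG00000076122.1, minus strand, 53053984 to 53054054) lie 200 nt apart in no other annotated gene. Their 4 mature sequences held 1142 reads, 55.9% (53.7 to 58.1) of the family, or 1774 reads and 50.0% (48.3 to 51.6) with end forms. Within the pair, miR-322-3p had 3.97 reads per read of miR-503-3p (3.40 to 4.65), and miR-322-5p had 23.6 per read of miR-503-5p (9.83 to 74.0). With end forms these ratios were 6.91 (5.96 to 8.04) for the 3p arms and 7.50 (4.57 to 13.0) for the 5p arms. The 3p ratio could only rise, since 1 end form is recorded for miR-322-3p and 0 for miR-503-3p.

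On chromosome 11, Mir497 (ENSMUSG00000105220.1, plus strand, 70234717 to 70234800) and Mir195a (ENSMUSG00000065411.2, plus strand, 70235042 to 70235135) lie 241 nt apart. Mir497 overlaps Mir497b on the opposite strand, and Mir195a lies in no other gene. Their 4 sequences held 325 reads, so Mir322 and Mir503 together had 3.51 reads per read of this cluster (3.10 to 3.99). miR-195a-5p had 3.58 reads per read of miR-497a-5p (2.48 to 5.27), or 5.89 (4.31 to 8.21) with end forms.

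The 2 copies of Mir16 give the same 5p sequence, and their reads cannot be separated on that arm. Mir16-1 (ENSMUSG00000092995.1, 61631880 to 61631972) lies on the minus strand of chromosome 14, 54 nt from Mir15a (ENSMUSG00000093007.1, 61632027 to 61632110). Both are inside the noncoding gene Dleu2, Mir15a in an intron and Mir16-1 overlapping an annotated exon. Mir16-2 (ENSMUSG00000065606.1, 69009902 to 69009996) lies on the plus strand of chromosome 3, 66 nt from Mir15b (ENSMUSG00000065580.2, 69009772 to 69009835), both in an intron of Smc4, which encodes a condensin subunit. The 3p arms differ between the copies. They are printed with their whole hairpins, where capitals mark the 5p and then the 3p mature sequence.
Mir16-1: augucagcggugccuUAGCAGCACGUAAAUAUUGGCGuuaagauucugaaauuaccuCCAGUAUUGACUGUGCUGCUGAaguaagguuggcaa
Mir16-2: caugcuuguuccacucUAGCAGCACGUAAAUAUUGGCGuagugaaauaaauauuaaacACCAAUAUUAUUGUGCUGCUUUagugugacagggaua
miR-16-1-3p had 25 reads and miR-16-2-3p had 2, a ratio of 12.5 (3.12 to 109). The 15a and 15b partners stood in the opposite order: miR-15a-5p had 6 reads and miR-15a-3p 0, against 103 of miR-15b-5p and 32 of miR-15b-3p. miR-15b-5p thus had 17.2 reads per read of miR-15a-5p (7.62 to 47.9), or 4.74 (3.0 to 7.79) with end forms. In these counts the more abundant 3p arm of miR-16 and the more abundant miR-15 came from different clusters. The 2 reads of miR-16-2-3p lie under the floor of 3 reads, and miR-16-5p cannot be split between the copies. The 3p reads therefore do not rank the 2 Mir16 copies. miR-16-5p had 68.0 reads per read of miR-15a-5p (31.0 to 186) and 3.96 per read of miR-15b-5p (3.18 to 4.97). With end forms these ratios were 41.7 (27.6 to 66.0) and 8.79 (7.20 to 10.8).

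The cluster on chromosome X also holds Mir351, Mir542, Mir450-2, Mir450-1 and Mir450b. Of their 9 mature sequences 7 had reads, 766 in all, against 1142 of the members in the cluster. miR-542-3p had 472 reads at rank 90, the most of the neighbours, and miR-542-5p had 0. miR-450a-5p, which both Mir450 copies can give, had 149 reads, miR-450b-5p 79 and miR-351-5p, a relative of miR-125 by its seed, 50. miR-351-3p, miR-450a-1-3p and miR-450b-3p had 5, 3 and 8 reads, and miR-450a-2-3p had 0. With end forms miR-542-3p had 962 reads and miR-450a-5p 726, and the neighbours together had 1833, slightly more than the 1774 of the members. The leading arm was 3p in Mir322, Mir503 and Mir542 and 5p in Mir351 and Mir450b. miR-450a-5p also exceeded the 3p arms of both Mir450-1 and Mir450-2, but its reads cannot be split between them. Reads did not fall steadily with distance from Mir322. Mir503, the closest, starts 295 nt after it and had 205 reads of its 3p arm. Mir351 starts 996 nt after it and had 50 reads of its 5p arm. Mir542 starts 4862 nt after it and had 472 reads of its 3p arm.

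**Figure D3:**
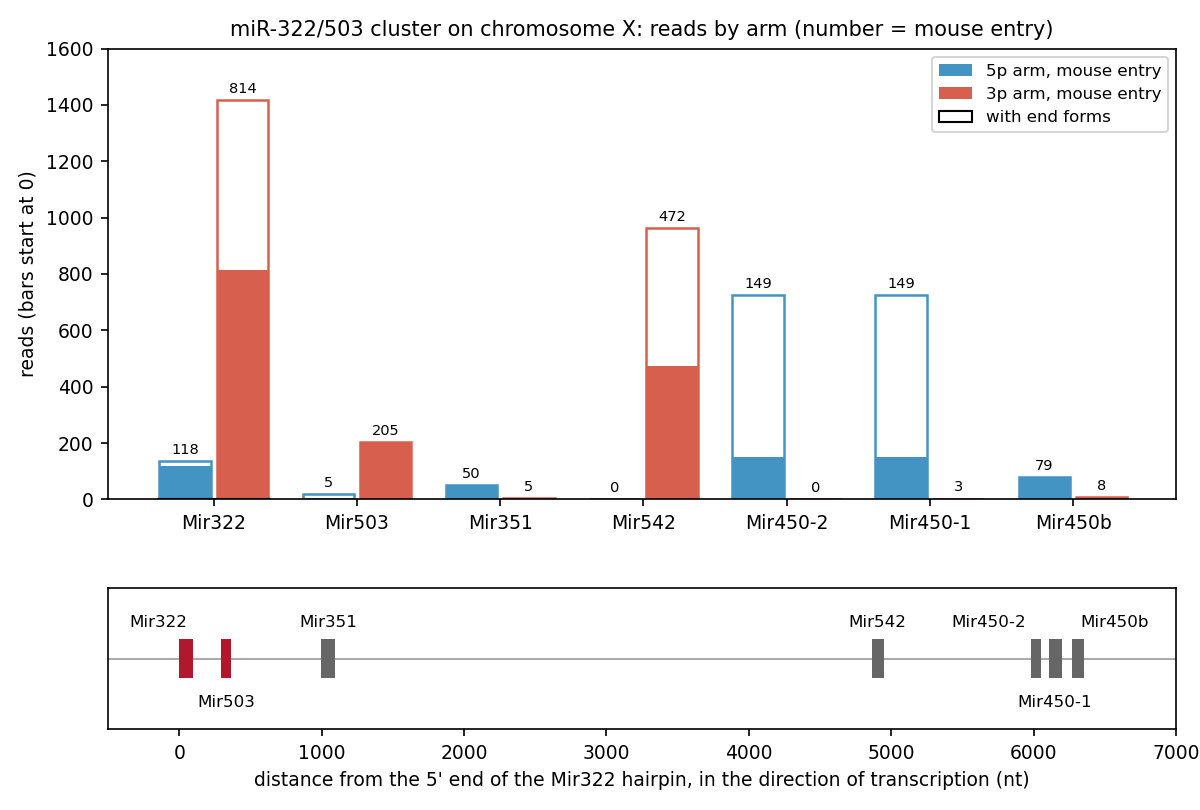
Top, reads of the 5p arm (blue) and the 3p arm (red) of each hairpin in the chromosome X cluster, as mouse entries (filled, number above) and with end forms (outline), where miR-450a-5p is drawn at both Mir450 copies because its reads cannot be split. Bottom, the hairpins by distance from Mir322; Mir322 and Mir503 are red. The 3p bar leads at Mir322 (814 against 118), Mir503 (205 against 5) and Mir542 (472 against 0).

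The arms differed between clusters. Over all members the 5p arms held 39.8% of the reads (37.7 to 42.0), or 44.1% (42.5 to 45.8) with end forms. Outside Mir322 and Mir503 the 5p arms held 691 of 901 reads, 76.7% (73.8 to 79.4), and 79.6% (77.7 to 81.5) with end forms. miR-16-5p alone gave 408 of these 691 reads, or 958 of 1414 with end forms. As given below, the arms of Mir195a were not separated, nor with end forms those of Mir15b. miR-322-3p and miR-503-3p held 82.9% (80.7 to 85.0) of all 3p reads of the family. The share on 5p arms therefore depended on whether the chromosome X cluster was counted.

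At Mir322 the 3p arm led with 814 reads, against 118 of the 5p arm, a ratio of 6.90 (5.68 to 8.44). With end forms the ratio was 10.5 (8.79 to 12.6). At Mir503 the 3p arm led with 205 reads, against 5 of the 5p arm, a ratio of 41.0 (17.3 to 128). The ratio at Mir503 was 11.4 (7.03 to 19.6) once an end form of miR-503-5p with 13 reads was counted, so its size rested on few reads. With end forms it could only fall, since 2 end forms are recorded for miR-503-5p and 0 for miR-503-3p. Both hairpins are printed with the 5p and then the 3p mature sequence in capitals, to show which strands were compared.
Mir322: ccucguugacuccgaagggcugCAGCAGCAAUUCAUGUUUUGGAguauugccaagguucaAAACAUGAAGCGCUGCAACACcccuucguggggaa
Mir503: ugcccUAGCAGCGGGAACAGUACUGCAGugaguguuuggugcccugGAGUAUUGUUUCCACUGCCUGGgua

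At Mir195a the arms were not separated, with 136 reads of the 5p arm and 151 of the 3p arm, a ratio of 0.901 (0.709 to 1.14), or 1.12 (0.941 to 1.34) with end forms. At Mir15b the 5p arm led with 103 reads against 32, a ratio of 3.22 (2.15 to 4.95). This lead was not seen with end forms, at 109 against 88 reads and a ratio of 1.24 (0.927 to 1.66), because a form of miR-15b-3p that ends 1 nt earlier had 56 reads. miR-16-5p had 16.3 reads per read of miR-16-1-3p (10.9 to 25.5) and 204 per read of miR-16-2-3p (56.1 to 1690), and these ratios share the reads of the same 5p sequence. With end forms they were 38.3 (25.8 to 59.5) and 479 (132 to 3961). The first of these could only rise, since 3 end forms are recorded for miR-16-5p and 0 for miR-16-1-3p. miR-497a-5p had 38 reads and miR-497a-3p 0, and miR-15a-5p had 6 and miR-15a-3p 0.

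A lead of the 3p arm was common in the library. Of all 233 arm pairs with at least 10 mouse-entry reads, members included, the 3p arm had more than 2 times the reads of the 5p arm in 41.2%, and the 5p arm more than 2 times those of the 3p arm in 53.2%. Of the 7 family pairs that met this minimum, the 3p arm led by this measure in 2 (Mir322 and Mir503) and the 5p arm in 4 (Mir15b, Mir16-1, Mir16-2 and Mir497). With end forms 253 pairs met the minimum, of which the 3p arm led in 42.3% and the 5p arm in 50.6%. The 8 family pairs then had 2 with the 3p arm ahead and 4 with the 5p arm ahead, Mir15a taking the place of Mir15b. Mir15a could lead only with its 5p arm, since 5 end forms are recorded for miR-15a-5p and 0 for miR-15a-3p. With so few pairs the counts of leading arms do not set the family apart from the other pairs.

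**Figure D4:**
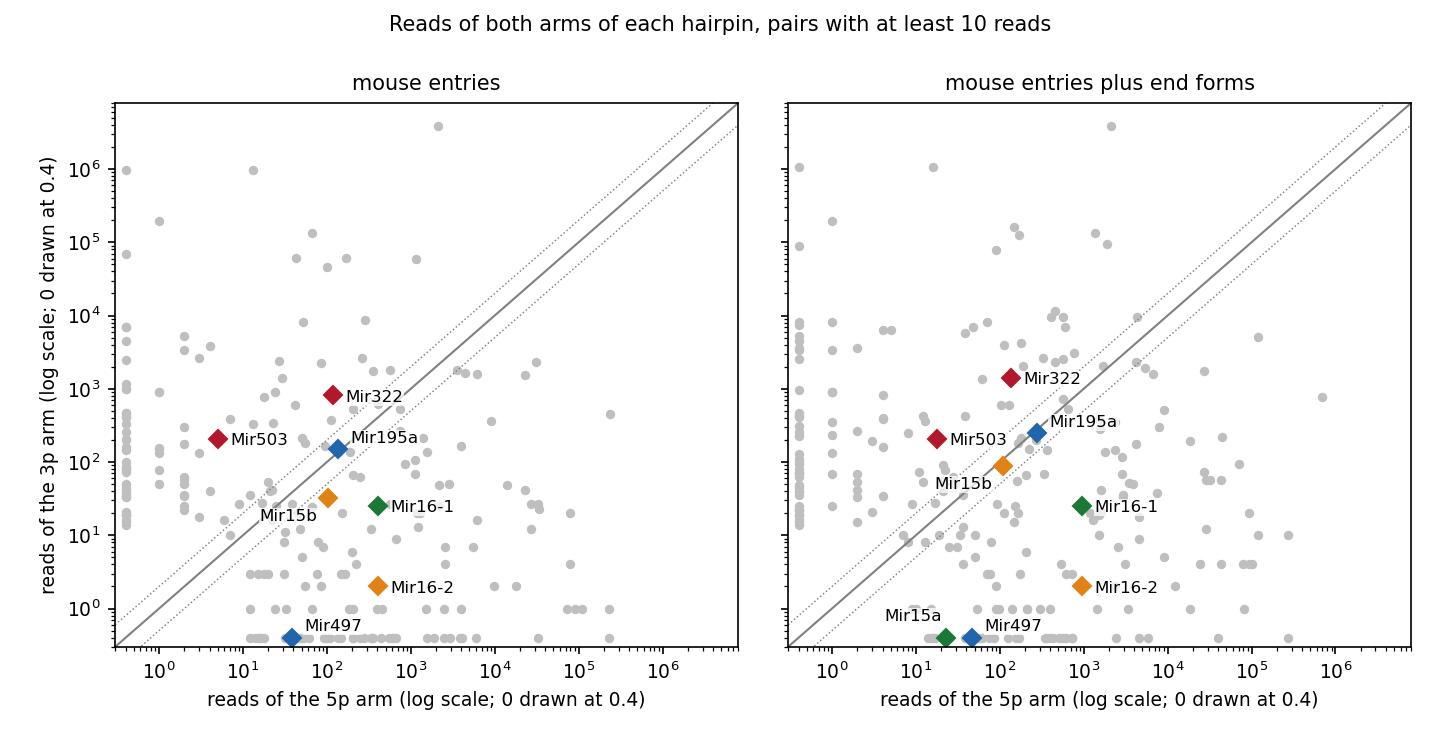
Reads of the 3p arm against reads of the 5p arm (both log scale) for hairpins with at least 10 reads over both arms, as mouse entries (left) and with end forms (right). Family hairpins are coloured diamonds, other hairpins grey; the solid line marks equal reads and the dotted lines a 2-fold lead. Mir322 and Mir503 lie above the lines in both panels, and Mir195a lies between them.

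Among the forms that the entry list records, the ends of the family's reads varied at the 3′ side and hardly at the 5′ side. A read with another start could be counted only where an entry of another species records that start. The shares below therefore say nothing about starts that no entry records. With end forms, 3548 of 3550 reads, 99.94% (99.80 to 99.99), began at the first base of the mouse entry, which keeps the seed as printed. Over all mouse sequences except members the share was 99.3%. The exceptions were 2 reads of miR-497a-5p that begin 1 base later. Among arms with at least 10 reads, 1 of 12 member arms and 82 of all 346 arms had any read with another start. Of reads with the annotated start, 32.3% ended before the mouse entry and 10.1% after it, against 9.20% and 7.29% over all mouse sequences. These shares weight each miRNA by its reads, and without miR-148a-3p, left out after seeing the data, they were 17.9% and 13.7%.

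The mouse entry held 57.5% of the family's reads (55.9 to 59.2). Over the 12 member arms with at least 10 reads it held a median of 59.3%, between 26.1% for miR-15a-5p and 100% for miR-503-3p and miR-16-1-3p, and over all 346 arms the median was 70.3%. It held less than 50% in 5 of the 12 member arms (miR-16-5p, miR-195a-5p, miR-15a-5p, miR-503-5p and miR-15b-3p), against 37.3% of all arms. miR-16-5p had 75 reads in its 20-nt form, 315 in its 21-nt form, 408 in the 22-nt mouse entry and 160 in its 23-nt form. miR-195a-5p had 136 reads in the 21-nt mouse entry and 141 in the form with 1 more base, which did not differ beyond counting error, since the shares of 49.1% (43.1 to 55.1) and 50.9% (44.9 to 56.9) overlap. miR-322-3p had 602 reads, 42.5% (39.9 to 45.1), in a form that lacks the last base. miR-503-5p had 13 of its 18 reads in a form 3 nt shorter. The forms that hold at least 10% of the highest members' reads are shown, with the seed in capitals, so that the constant start and the varying end can be seen.
miR-16-5p, 21 nt, 315 reads: uAGCAGCAcguaaauauuggc
miR-16-5p, 22 nt, 408 reads: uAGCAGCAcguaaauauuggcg
miR-16-5p, 23 nt, 160 reads: uAGCAGCAcguaaauauuggcgu
miR-195a-5p, 21 nt, 136 reads: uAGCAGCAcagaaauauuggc
miR-195a-5p, 22 nt, 141 reads: uAGCAGCAcagaaauauuggca
miR-322-3p, 20 nt, 602 reads: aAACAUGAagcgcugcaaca
miR-322-3p, 21 nt, 814 reads: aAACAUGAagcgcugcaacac

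**Figure D5:**
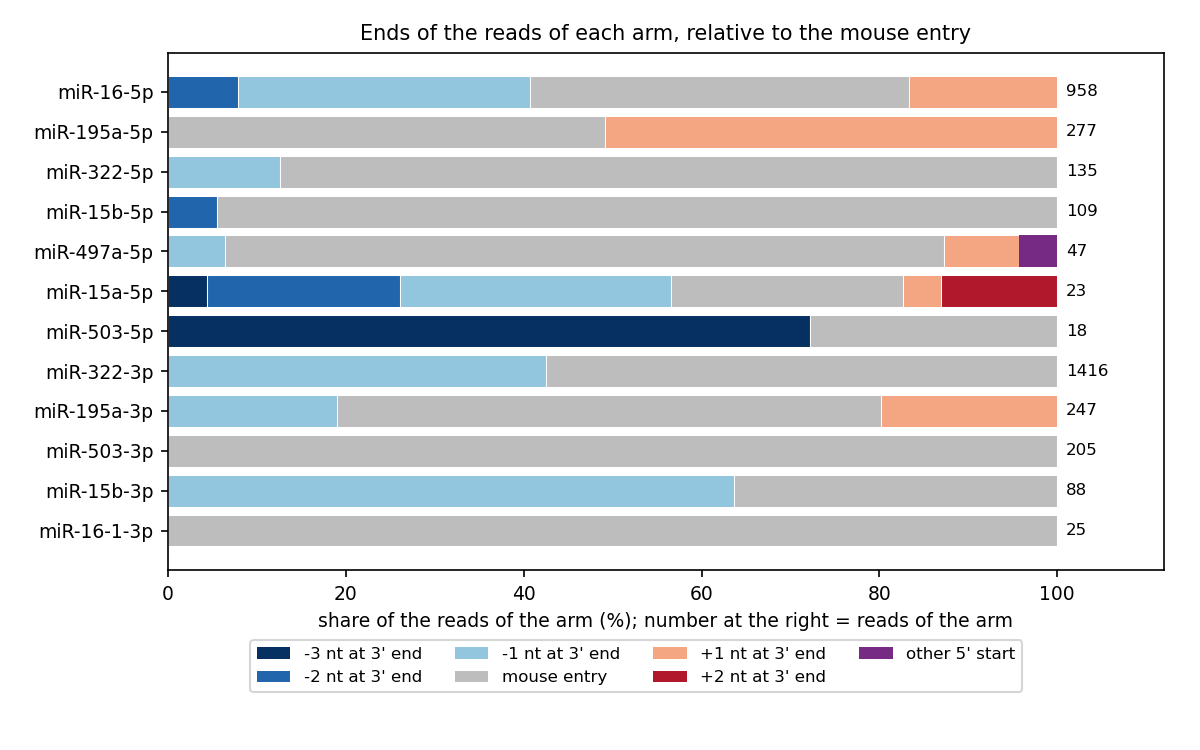
Share of the reads of each arm (%) by the position of the last base relative to the mouse entry (grey), for the 12 member arms with at least 10 reads with end forms; numbers at the right are reads of the arm. miR-503-3p and miR-16-1-3p consist of the mouse entry alone, whereas 50.9% of miR-195a-5p reads end 1 nt later and 42.5% of miR-322-3p reads end 1 nt earlier.

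These shares, and all ratios with end forms, depend on the end forms that the entry list records. Between 0 and 5 end forms were recorded per member, 5 for miR-15a-5p, 3 for miR-16-5p, 1 for miR-322-3p and 0 for miR-503-3p, and ends that no entry records were not seen. A share of 100% for an arm without a recorded end form therefore says nothing about its ends.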

How the data were processed

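Small RNA of mouse liver was ligated to adapters at both ends, amplified by PCR, size-selected and sequenced as single reads, per the labels' protocols. Ligation favours some small RNAs, so reads are not molecules. The deposited values are raw counts of 1 cleaned library for each of 48885 mature miRNA entries of many species, as the file headers show. The library column matched the title of Cre-miR122 replicate 2 alone. Per the submitters' processing notes the build was mm10. The counting program is not given in the sources used here.

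Entries of identical sequence had equal counts (0 exceptions) and were used as 1 sequence. End forms were exact matches in the 2202 miRNA hairpins of GENCODE M21 (GRCm38) that overlap a mouse sequence by at least 15 nt. All 19 end forms found by position also carried a miRNA number of the family. The number was used as a filter on forms found by position, so it could remove forms but not add any. Shares have Clopper-Pearson 95% intervals, and ratios have exact binomial intervals given the sum of both counts. Both calculations and the assignment were tested on simulated data. With 1 library no test between groups was run. Alternatives changed the total, added end forms, required 10 reads, summed entries, or left out a miRNA.

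The rule for members uses names alone, but it and the lists were chosen with earlier results of these data known. Named were all members, the chromosome X neighbours, mouse sequences sharing a 5p seed, end forms with at least 10% of an arm, and the sequences next in rank to the highest members. Levels are reads of whole sequences of 21 to 23 nt, so no correction for length was made. Calculations used SciPy 1.17.1, NumPy 2.4.6 and pandas 2.3.3 under Python 3.11.15, with plots by matplotlib 3.10.9.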

Additional observations from a re-analysis of the deposited data

Results flagged for a closer look

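Counts of other-species entries lay outside the main measurement, and for 10 members they exceeded the floor of 3 reads. miR-322-3p had 602 such reads and miR-16-5p had 550, more than its mouse entry. miR-195a-5p had 141, miR-195a-3p 96 and miR-15b-3p 56. miR-15a-5p and miR-322-5p had 17 each, miR-503-5p 13, miR-497a-5p 9 and miR-15b-5p 6.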

How the results depend on the processing

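The family share of mouse reads, 0.0307%, was 0.0250% with the total over all sequences, 0.0728% without miR-148a-3p in the total and 0.0442% with end forms. With end forms the share of family reads on 5p arms was 44.1% in place of 39.8%, and the share of 5p reads held by miR-16-5p was 61.1% in place of 50.1%. Leaving out Mir322 and Mir503, chosen after seeing the data, put 76.7% of the remaining reads on 5p arms. Each move follows from the reads that the alternative adds or removes. The other 10 recomputed values stayed inside their intervals: those that required 10 reads, summed entries, left out miR-503-5p or found end forms by position, and, with end forms, the ratio of Mir322 and Mir503 to the cluster on chromosome 11 and that of miR-16-1-3p to miR-16-2-3p. That last ratio could not move with end forms, because miR-16-1-3p and miR-16-2-3p each had 0 end-form reads. With at least 10 reads it has no value, since miR-16-2-3p falls away. No paired analysis was possible because no library of the Cre group was analysed, and no replicate number is shared between the groups. Depth limits miR-15a-5p, miR-503-5p and miR-16-2-3p, whose ratios rest on 6, 5 and 2 reads.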

Other observations

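By coincidence of counts, miR-322-3p alone had as many reads, 814, as the 7 members of the 5p arm together. With end forms the values were 1416 and 1567. Reads were also counted for 2 sequences that carry the family's names in other species but are found in no mouse hairpin, with 2 and 3 reads, at or under the floor.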
